A study of Mus musculus with 9 samples.

Results

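The genes described here are the enzymes that join glutathione or glucuronic acid to reactive and lipid-soluble compounds, with the enzymes that make, recycle and spend glutathione on peroxides. Members were chosen by a rule on gene symbols, set with earlier results of these data known. The rule took symbols of the glutathione S-transferases (Gst classes and Mgst), UDP-glucuronosyltransferases (Ugt), glutathione peroxidases (Gpx) and peroxiredoxins (Prdx), with Gclc, Gclm, Gss, Gsr and Nqo1. Of 18193 genes that the arrays measured through a probe set naming that gene alone, 50 were members, each represented by its probe set of highest mean signal. RNA had been taken from 3 cell populations sorted from the tracheal epithelium of mice hemizygous for KRT5-GFP, a transgene in which the keratin 5 promoter drives green fluorescent protein, and hybridised to Affymetrix expression arrays, with 3 biological replicates per population and 9 arrays in all. The GFP+ gate held cells that carried the reporter and bound GSI-A3B isolectin, a plant protein that binds cell surface sugars. The lectin-only gate bound the lectin without the reporter, and the columnar gate had neither mark. The labels call the cells of the GFP+ and lectin-only gates basal cells (BCs) and those of the columnar gate columnar epithelium. All 3 gates came from the same transgenic strain and no other treatment is named. The reporter marks cells by the activity of its promoter and not by the protein of the gene itself. The age of the mice, and whether animals were pooled for a replicate, are not given in the sources used here, so the p-values measure the spread between these samples.

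Conjugation is the step of detoxification that makes a compound more water-soluble, so that transporters can move it out of the cell. Glutathione is built from glutamate, cysteine and glycine, is attached to electrophiles by the glutathione S-transferases, and is oxidised by the glutathione peroxidases and returned to its reduced form by glutathione reductase. UDP-glucuronosyltransferases use UDP-glucuronic acid in the same way. In the airway, club cells of the columnar layer are known for their high capacity to metabolise inhaled compounds, and many of these genes are targets of the transcription factor NRF2, the product of Nfe2l2, which binds antioxidant response elements.

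The upstream sequences of 5 members are shown because the results turn on them or because they stand for the pathway: Gstp1 and Gstp3, neighbours of the same class; Gclm, of glutathione synthesis; Mgst1, of the membrane-bound transferases; and Ugt2b34, the member that was higher in both lectin-binding gates. Each is the 250 bases before the transcription start in RefSeq's annotation of GRCm38.p6, written 5′ to 3′ on the strand of the gene. Capitals mark matches, on either strand, to TGACNNNGC, the core of the antioxidant response element, or to TGAGNNNGC, a variant of it.
Gstp1, chr19:4037913-4038162, minus strand: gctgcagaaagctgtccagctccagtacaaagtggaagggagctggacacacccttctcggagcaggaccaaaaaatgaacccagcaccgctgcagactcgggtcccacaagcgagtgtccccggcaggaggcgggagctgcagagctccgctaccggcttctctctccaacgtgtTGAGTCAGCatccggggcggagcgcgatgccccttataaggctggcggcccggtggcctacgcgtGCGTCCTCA
Gstp3, chr19:4059448-4059697, minus strand: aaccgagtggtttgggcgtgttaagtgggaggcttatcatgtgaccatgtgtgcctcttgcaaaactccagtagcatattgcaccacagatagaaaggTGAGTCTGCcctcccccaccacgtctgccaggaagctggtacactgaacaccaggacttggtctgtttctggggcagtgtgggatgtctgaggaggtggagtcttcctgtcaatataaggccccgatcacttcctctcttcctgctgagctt
Gclm, chr3:122245307-122245556, plus strand: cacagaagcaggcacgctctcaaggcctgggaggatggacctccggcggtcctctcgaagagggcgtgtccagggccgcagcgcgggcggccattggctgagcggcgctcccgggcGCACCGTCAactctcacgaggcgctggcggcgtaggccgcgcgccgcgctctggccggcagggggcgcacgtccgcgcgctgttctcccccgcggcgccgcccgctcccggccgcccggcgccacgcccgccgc
Mgst1, chr6:138140277-138140526, plus strand: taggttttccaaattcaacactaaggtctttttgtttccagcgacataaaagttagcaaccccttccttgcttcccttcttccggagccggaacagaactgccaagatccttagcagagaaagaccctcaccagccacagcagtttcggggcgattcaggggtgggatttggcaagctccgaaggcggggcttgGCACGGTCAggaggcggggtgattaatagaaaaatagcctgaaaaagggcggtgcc
Ugt2b34, chr5:86906938-86907187, minus strand: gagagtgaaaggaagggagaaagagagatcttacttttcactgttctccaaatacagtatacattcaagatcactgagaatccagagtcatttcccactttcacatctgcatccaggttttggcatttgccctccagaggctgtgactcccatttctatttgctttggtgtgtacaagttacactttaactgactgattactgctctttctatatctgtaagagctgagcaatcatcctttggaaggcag
Counted from its first base, the match in Gclm lay 134 bases before the start, that in Mgst1 56, that in Gstp3 152 and those in Gstp1 74 and 9. The match in Gstp1 at 74 bases overlapped TGAGTCA, the AP-1 motif. No match was present in the window of Ugt2b34, nor in that of another Mgst1 start in the same annotation, which says only that these letters are not there.

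RefSeq upstream windows were matched for 45 of the 50 members. TGACNNNGC was found in 5 of them, namely Gclm, Gsta3, Gstm5, Gstm7 and Mgst1, or 11.1%, against 11.5% of the 27025 genes whose windows were counted. That count left out the windows of a single chromosome. TGAGNNNGC was found in 6 (13.3%) against 16.3%, either motif in 10 (22.2%) against 25.7%, and TGAGTCA in 4 (8.89%) against 5.16%. Of the 10 matched members called in a comparison below, 3 held either antioxidant motif: Gstp3, Gstt1 and Mgst1. A match describes the letters of a window and shows no binding site.

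Signals are on the log2 scale as the authors deposited them, so a difference of 1 is a doubling. A gene was called where limma's adjusted p, by the Benjamini-Hochberg method over all 18193 genes, was under 0.05 and the log2 difference was at least 1 in size. The ± beside a difference is its standard error (SE) from limma, and beside a level it is the standard deviation (SD), with n = 3 arrays per gate throughout. The background level, 3.56, is the 95th percentile of the signals of 80 probe sets for receptors of smell and pheromones, genes taken as silent here. Of the 50 members, 39 were above it on all 3 arrays of at least 1 gate and 11 were not. The medians of the arrays were 4.91 to 5.16 on 8 of them and 5.44 on replicate 3 of the lectin-only gate, where 73.0% of probe sets were above background against 65.3% to 66.3% on the others.

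The labels of the gates were set against marker genes. Of 10 basal cell markers, 9 were called higher in each lectin-binding gate than in the columnar gate. Their summed signal, as log2, was 15.47 to 15.68 in the GFP+ gate. The lectin-only arrays had 14.83 to 15.20 and the columnar arrays 13.43 to 13.75. Of 10 ciliated cell markers, 9 were lower in the GFP+ gate than in the columnar gate and 7 were lower in the lectin-only gate, with sums of 11.55 to 12.28, 12.02 to 12.42 and 13.02 to 13.20. Of 10 club and other secretory markers, 4 were lower in each lectin-binding gate, but Scgb1a1, the club cell secretoglobin, had means of 13.74 ± 0.11 (SD, columnar), 13.69 ± 0.07 (lectin-only) and 13.64 ± 0.13 (GFP+). Whether signals this high, in markers or in members below, still follow the amount of RNA was not tested. Leukocyte markers stood out in the lectin-only gate: 9 of 10 were higher there than in the columnar gate and 9 were higher there than in the GFP+ gate, with sums of 13.93 to 14.51 against 9.26 to 10.45 and 10.22 to 11.83. Of 8 macrophage markers, the lectin-only gate had 6 above their columnar level, by the same call. Fibroblast markers went both ways in the GFP+ gate: 4 of 8 were called below their columnar level (Col1a1, Col1a2, Col3a1 and Dpt) and 2 above it (Dcn and Fbln1), with sums of 11.23 to 11.75 against 9.48 to 9.69. Of 5 markers of brush cells, a sensory cell type of the airway, Trpm5 and Dclk1 were lower in the GFP+ gate than in the columnar gate, with sums of 7.23 to 8.19 against 8.65 to 9.85, and 8.75 to 10.30 on the lectin-only arrays. Neither of 2 erythroid markers was above background in a gate. These arrays measure mixtures, so fewer cells of a type and less RNA per cell cannot be told apart. The part of RNA from ciliated, secretory, brush, neuroendocrine, stromal, endothelial, muscle and blood-derived cells in the differences below was not tested.

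Between the GFP+ and the columnar gate, conjugation and peroxide enzymes were called lower more often than higher. Of the 50 members 10 were called, where 11.2% of all genes were. In the GFP+ gate 9 members (18.0%) were lower, against 5.33% of all genes, and 1 (2.0%) was higher, against 5.88%. The 9 were Ugt8a, Gstp3, Gpx3, Gstm6, Gstt2, Gsto2, Mgst1, Gstk1 and Gss, and the 1 was Ugt2b34. The other 40 were not called. They included Gpx4, Gstm5, Gstp1, Gstt3 and Prdx3, whose adjusted p was under 0.05 with lower signals by less than the minimum. The arrays of the gates did not overlap, with the GFP+ gate lower, for 24 members (48.0%), against 17.8% of all genes, and with the GFP+ gate higher for 2 members against 15.8%. The median difference of the 50 members was −0.30, and that of all genes was −0.04.

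Against the same columnar gate, the lectin-only gate had 6 called members of 50, where 8.85% of all genes were called. Of these, 5 (10%) were lower, against 2.38% of all genes, and 1 (2.0%) was higher, against 6.47%. The 5 were Ugt8a, Gstp3, Gstt1, Gstt2 and Gstm6, and the 1 was again Ugt2b34. Gstk1 and Mgst1 had an adjusted p under 0.05 with lower signals by less than the minimum. Arrays did not overlap, with the lectin-only gate lower, for 18 members (36.0%) against 8.61% of all genes, and with it higher for 4 against 16.0%. The median difference was −0.20 over the members and 0.07 over all genes. Both comparisons use the same columnar arrays, so a high or low columnar array enters each of them. The count of members called lower was 2 with columnar replicate 3 or lectin-only replicate 1 left out, and 3 with columnar replicate 1 or GFP+ replicate 2 left out.

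Comparing both lectin-binding gates, limma called 0 of the 50 members, against 3.74% of all genes. At an unadjusted p under 0.05 there were 12 members (24.0%), against 15.3% of all genes. Arrays did not overlap for 9 members with the GFP+ gate lower, against 13.3% of all genes, and for 3 with it higher, against 5.24%. The median difference was −0.12 over the members and −0.10 over all genes.

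The means of 24 members (48.0%) were ordered columnar, lectin-only, GFP+ from high to low, against 24.5% of all genes. With each array centred on its median the counts were 20 (40.0%) against 28.5%, and after a further quantile normalization 19 (38.0%) against 21.6%. The opposite order was held by 1 member (2.0%), Ugt2b34, against 19.4% of all genes. The lectin-only gate had the highest mean for 10 members (20.0%) against 39.6% of all genes, for 5 (10%) against 18.3% with arrays centred, and for 8 (16%) against 22.7% after further quantile normalization. Dim members and dim genes enter all these counts, and signals under background carry no order. Among the 10 members, Gsta4, Gstm3, Mgst3 and Nqo1 were above background. The others, Gpx5, Ugt2a3, Ugt2b1, Ugt2b35, Ugt2b36 and Ugt2b38, were under it on every array.

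**Figure D1:**
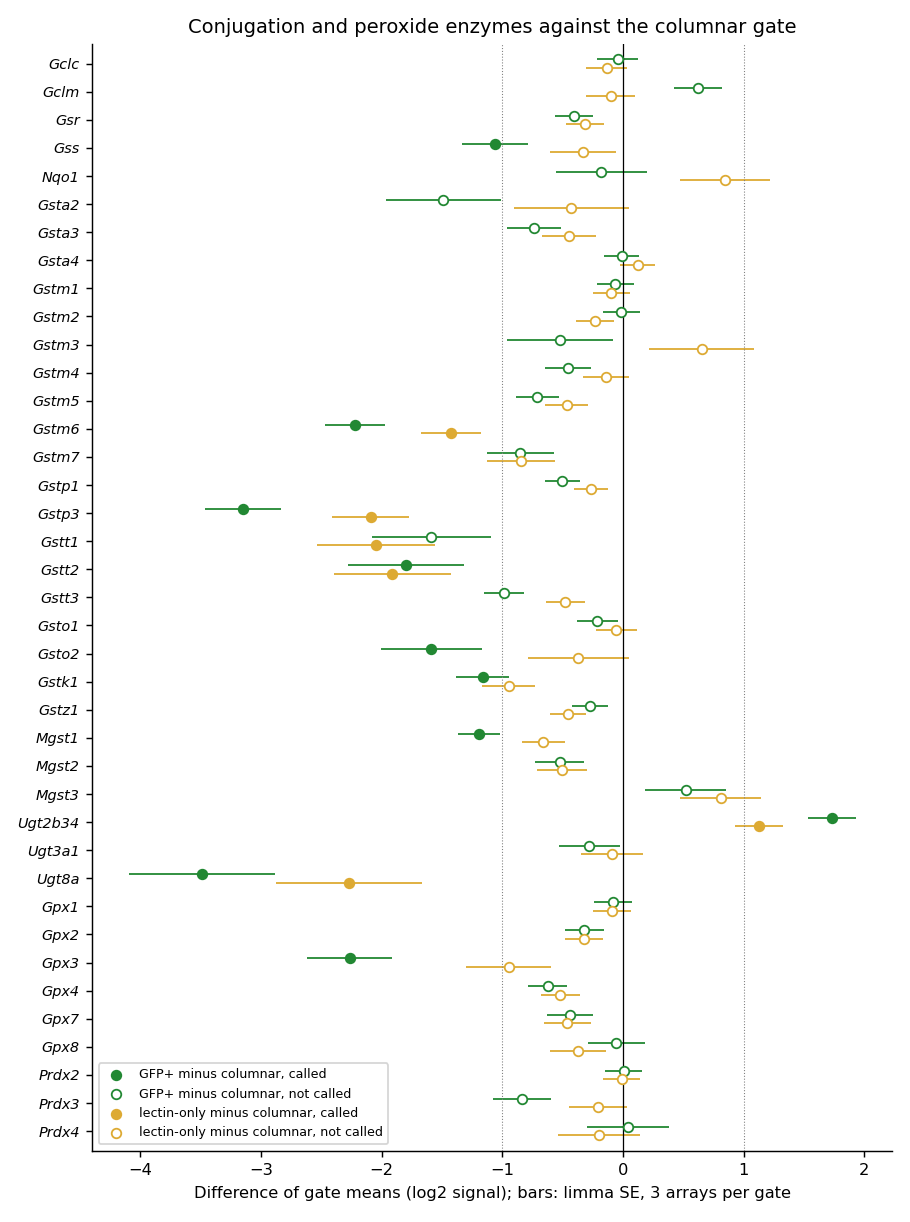
Log2 difference of each of the 39 members above background in at least 1 gate, GFP+ against columnar in green and lectin-only against columnar in yellow, with bars of 1 limma SE and filled symbols for called differences. Most points lie left of 0, Ugt8a and Gstp3 farthest at −3.49 and −3.15 in the GFP+ gate, and Ugt2b34 lies right of 0 in both comparisons at 1.73 and 1.13.

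Glutathione synthesis begins with glutamate-cysteine ligase, whose catalytic subunit is Gclc and whose modifier subunit is Gclm. Gclc had signals of 10.41, 10.66 and 10.37 on the columnar arrays, 10.45, 10.25 and 10.33 on the lectin-only arrays and 10.61, 10.28 and 10.42 on the GFP+ arrays. These overlap, with −0.04 ± 0.17 (limma adjusted p = 0.922) for the GFP+ against the columnar gate. Gclm was at 9.95, 9.85 and 9.72 in the columnar gate, 9.87, 9.39 and 9.95 in the lectin-only gate and 10.58, 10.23 and 10.56 in the GFP+ gate. All 3 GFP+ arrays were above all 6 others, but the differences of 0.62 ± 0.20 from the columnar gate (adjusted p = 0.0742) and 0.72 ± 0.20 from the lectin-only gate (adjusted p = 0.0864) were not called. Another probe set of Gclm differed by 0.92 between the GFP+ and columnar gates. Its limma adjusted p was 0.0157 over every probe set, and the difference was under the minimum.

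Gss, glutathione synthetase, adds glycine in the last step. Gss had signals of 9.01, 10.02 and 9.63 in the columnar gate, 9.30, 9.0 and 9.37 in the lectin-only gate and 8.15, 8.59 and 8.72 in the GFP+ gate. The GFP+ arrays lay below all others, while the columnar and lectin-only arrays overlapped. Gss fell by 1.06 ± 0.27 in the GFP+ gate against the columnar gate (adjusted p = 0.0288), which is 2.09-fold lower. Another Gss probe set was also called lower, at −1.26 (limma adjusted p = 0.00796 over every probe set). The call of the chosen probe set was lost without columnar replicate 2 (−0.83, adjusted p = 0.0977), columnar replicate 3 (−1.02, 0.0879), GFP+ replicate 1 (−0.89, 0.101) or GFP+ replicate 2 (−1.11, 0.0665), and with only these gates in the fit (−1.06, 0.0557).

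Gsr, glutathione reductase, returns oxidised glutathione to its reduced form. Its signals were 12.96, 12.90 and 12.71 in the columnar gate, 12.45, 12.59 and 12.59 in the lectin-only gate and 12.48, 12.50 and 12.37 in the GFP+ gate. Every columnar array was above every lectin-binding array, with differences of −0.40 ± 0.15 in the GFP+ gate (adjusted p = 0.131) and −0.31 ± 0.15 in the lectin-only gate (adjusted p = 0.286) that were not called. Nqo1, a quinone reductase much used as a readout of NRF2 activity, was at 8.81, 9.32 and 9.45 in the columnar gate, 9.95, 10.24 and 9.93 in the lectin-only gate and 8.05, 9.63 and 9.37 in the GFP+ gate. The lectin-only arrays were above all others, without a call: the difference was 0.85 ± 0.38 from the columnar gate (adjusted p = 0.228), and the GFP+ gate differed from the lectin-only gate by −1.03 ± 0.38 (adjusted p = 0.204). GFP+ replicate 1 stood more than 1 log2 unit below the other GFP+ arrays.

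The pi class holds Gstp1, an abundant cytosolic transferase of epithelia, and Gstp3. Gstp3 had signals of 9.61, 9.51 and 10.13 in the columnar gate, 7.49, 7.22 and 8.26 in the lectin-only gate and 6.17, 7.0 and 6.63 in the GFP+ gate. No array of any gate overlapped with those of another. Gstp3 fell by 3.15 ± 0.32 in the GFP+ gate (adjusted p = 0.000171, 8.87-fold lower) and by 2.09 ± 0.32 in the lectin-only gate (adjusted p = 0.00254, 4.26-fold lower), both against the columnar gate. The difference between the lectin-binding gates, −1.06 ± 0.32, was not called (adjusted p = 0.112). Both calls held under all 19 alternatives tried.

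Gstp1 kept the same order of the gates at a much smaller spread. Its signals were 13.34, 13.32 and 13.36 in the columnar gate, 13.08, 13.07 and 13.08 in the lectin-only gate and 12.89, 12.87 and 12.76 in the GFP+ gate. The gates again did not overlap, but the difference between the GFP+ and columnar gates was −0.50 ± 0.14 (adjusted p = 0.0452), under the minimum, and that between the lectin-only and columnar gates was −0.26 ± 0.14 (adjusted p = 0.342). The RefSeq order of protein-coding genes in GRCm38.p6 places Gstp1, Gstp2 and Gstp3 side by side, and the promoters of Gstp1 and Gstp3 are those printed above.

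The mu class, whose genes lie side by side as Gstm5, Gstm7, Gstm6, Gstm3, Gstm2, Gstm1 and Gstm4 in GRCm38.p6, had 1 called member of 7. Gstm6 was at 8.38, 8.82 and 8.60 in the columnar gate, 7.26, 7.33 and 6.92 in the lectin-only gate and 6.06, 6.89 and 6.18 in the GFP+ gate. The 3 gates did not overlap. Gstm6 fell by 2.22 ± 0.25 in the GFP+ gate (adjusted p = 0.000307, 4.67-fold lower) and by 1.43 ± 0.25 in the lectin-only gate (adjusted p = 0.00529, 2.69-fold lower), and both calls held under all 19 alternatives. The difference of −0.80 ± 0.25 between the GFP+ and lectin-only gates had an adjusted p of 0.129, and without GFP+ replicate 2 it was called at −1.05 (adjusted p = 0.0436).

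Its neighbours differed less. Gstm1 lay between 13.16 and 13.42 on the 9 arrays and Gstm2 between 12.64 and 13.11, with differences between the GFP+ and columnar gates of −0.06 and −0.01. Gstm5 differed by −0.71 (adjusted p = 0.0257, under the minimum), Gstm7 by −0.85 (0.0823) and Gstm4 by −0.45 (0.171). Gstm3 was the mu class gene with the widest spread inside a gate: 8.78, 9.62 and 9.32 on the columnar arrays, 9.34, 10.30 and 10.03 on the lectin-only arrays and 7.74, 9.48 and 8.93 on the GFP+ arrays. Its gates overlapped and −1.18 ± 0.44, the GFP+ against the lectin-only gate, was not called (adjusted p = 0.215).

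The theta class, an older branch of the cytosolic transferases, had calls in both lectin-binding gates. Gstt2 had signals of 7.15, 5.04 and 6.18 in the columnar gate, 3.93, 4.60 and 4.12 in the lectin-only gate and 4.87, 4.32 and 3.79 in the GFP+ gate. The columnar arrays were the highest but spread over more than 2 log2 units, and the lectin-binding gates overlapped. Gstt2 fell by 1.80 ± 0.48 in the GFP+ gate (adjusted p = 0.0351, 3.48-fold lower) and by 1.91 ± 0.48 in the lectin-only gate (adjusted p = 0.0332, 3.76-fold lower). The GFP+ call was lost without columnar replicate 1 (−1.29, adjusted p = 0.0942) or 3 (−1.77, 0.0942), lectin-only replicate 1 (−1.80, 0.0561) or 3 (−1.80, 0.0518), GFP+ replicate 2 (−1.80, 0.0915) or 3 (−1.53, 0.129), and with only these gates in the fit (0.0764). The lectin-only call was lost without columnar replicate 1 (−1.40, adjusted p = 0.0858) or 3 (−1.88, 0.092), lectin-only replicate 1 (−1.77, 0.112) or 3 (−1.86, 0.0961), or without GFP+ replicate 2 (−1.91, 0.0523), and with only these gates in the fit (0.0582).

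Gstt1 had signals of 9.22, 9.91 and 10.02 in the columnar gate, 8.02, 6.42 and 8.57 in the lectin-only gate and 8.26, 7.73 and 8.39 in the GFP+ gate. The columnar arrays were again above all others. Gstt1 fell by 2.04 ± 0.49 in the lectin-only gate (adjusted p = 0.0261, 4.12-fold lower). The difference of −1.59 ± 0.49 in the GFP+ gate was not called (adjusted p = 0.0627). The lectin-only call was lost without columnar replicate 2 (−1.95, adjusted p = 0.0809), columnar replicate 3 (−1.89, 0.0888) or with lectin-only replicate 1 left out (−2.22, 0.0543), and with only these gates in the fit (0.0592). The GFP+ difference was called at −1.59 without lectin-only replicate 2 (adjusted p = 0.00643) or 3 (0.0367), and under centring and further quantile normalization at −1.70 (0.0219) and −1.65 (0.036), and with only these gates in the fit (0.0108).

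Gstt3 showed less spread, with signals of 9.05, 8.90 and 9.14 in the columnar gate, 8.52, 8.40 and 8.73 in the lectin-only gate and 7.95, 8.11 and 8.07 in the GFP+ gate. The 3 gates did not overlap. At −0.98 ± 0.16, the GFP+ gate against the columnar gate had an adjusted p of 0.00291 and lay just under the minimum. It passed the minimum with arrays centred on their medians (−1.09), after further quantile normalization (−1.03), without columnar replicate 2 (−1.05) and without GFP+ replicate 2 (−1.02). Gstt4 was near or under background in every gate, at 2.80 to 3.65.

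**Figure D2:**
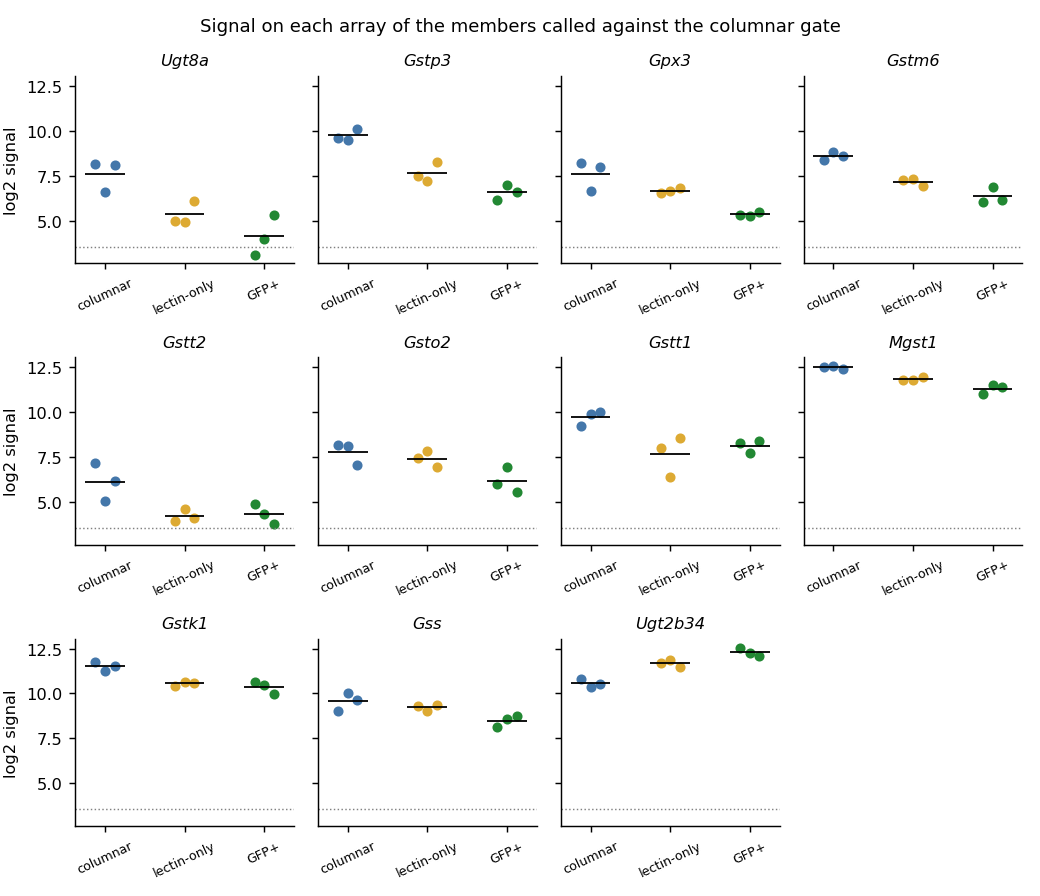
Log2 signal of the 11 members called in GFP+ against columnar or in lectin-only against columnar, 1 panel per gene, with 1 point per array and gate, a black line at the mean of 3 arrays and a dotted line at the background level of 3.56. Ugt2b34 steps up from columnar to lectin-only to GFP+, Gstp3 and Gstm6 step down without overlap, and Gstt2 and Ugt8a show wide spread among the columnar arrays.

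Among the other cytosolic and mitochondrial transferases, Gstk1, the kappa class enzyme of mitochondria and peroxisomes, was at 11.75, 11.23 and 11.53 in the columnar gate, 10.43, 10.65 and 10.60 in the lectin-only gate and 10.62, 10.45 and 9.96 in the GFP+ gate. The columnar arrays lay above both lectin-binding gates, which overlapped. Gstk1 fell by 1.16 ± 0.22 in the GFP+ gate (adjusted p = 0.006, 2.24-fold lower). This went under the minimum, to −0.97, without GFP+ replicate 3 (adjusted p = 0.0231). In the lectin-only gate the difference was −0.95 ± 0.22 (adjusted p = 0.0221), under the minimum; it was −1.18 with arrays centred on their medians, −1.03 after further quantile normalization and −1.08 without columnar replicate 2.

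Gsto2, an omega class enzyme known as a dehydroascorbate reductase, had signals of 8.15, 8.12 and 7.04 in the columnar gate, 7.44, 7.83 and 6.93 in the lectin-only gate and 6.02, 6.96 and 5.56 in the GFP+ gate. The GFP+ arrays were below all columnar arrays, by a margin of less than 0.1 at the nearest pair, and overlapped the lectin-only arrays. Gsto2 fell by 1.59 ± 0.42 in the GFP+ gate against the columnar gate (adjusted p = 0.0325, 3.01-fold lower). The call was lost without columnar replicate 1 (−1.40, adjusted p = 0.11) or 2 (−1.41, 0.106), lectin-only replicate 1 (−1.59, 0.0558), GFP+ replicate 1 (−1.51, 0.0952) or 3 (−1.28, 0.121), and with only these gates in the fit (0.0596). Gsto1, its neighbour in GRCm38.p6, lay between 13.19 and 13.73 on all arrays and differed by −0.21 between the same gates.

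No alpha class member was called. Gsta4, known for its activity on the lipid peroxidation product 4-hydroxynonenal, lay between 13.76 and 14.01 on all arrays, with −0.01 ± 0.14 for the GFP+ against the columnar gate. Gsta3 was at 13.39, 13.05 and 13.23 in the columnar gate, 12.89, 12.87 and 12.58 in the lectin-only gate and 12.83, 12.57 and 12.06 in the GFP+ gate. The GFP+ gate differed from the columnar gate by −0.73 ± 0.22 (adjusted p = 0.0588). Another, dimmer Gsta3 probe set differed by −0.82 between these gates (adjusted p = 0.0147 over every probe set), under the minimum. Gsta2 was at 9.66, 10.97 and 10.64 in the columnar gate, 10.06, 9.48 and 10.45 in the lectin-only gate and 7.92, 9.38 and 9.50 in the GFP+ gate. The GFP+ arrays lay below the columnar arrays by −1.49 ± 0.48, which was not called (adjusted p = 0.0727) and was called at −1.60 with arrays centred on their medians (adjusted p = 0.0308) and at −1.87 without columnar replicate 1 (adjusted p = 0.0408). Gstz1, the zeta class enzyme of tyrosine breakdown, lay between 8.06 and 8.71, with a difference of −0.27 in the GFP+ gate.

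The membrane-bound transferases Mgst1, Mgst2 and Mgst3 differed among themselves. Mgst1 was at 12.52, 12.58 and 12.42 in the columnar gate, 11.78, 11.82 and 11.95 in the lectin-only gate and 11.02, 11.51 and 11.40 in the GFP+ gate. The gates did not overlap. Mgst1 fell by 1.19 ± 0.18 in the GFP+ gate (adjusted p = 0.00155, 2.29-fold lower), and the difference of −0.66 ± 0.18 in the lectin-only gate was under the minimum (adjusted p = 0.0429). Another Mgst1 probe set had mean signals of 3.22, 3.34 and 3.03 in the columnar, lectin-only and GFP+ gates, below the background level, and the mean of both probe sets differed by −0.69 between the GFP+ and columnar gates.

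Mgst2, which can also make leukotriene C4, lay between 11.26 and 12.24, with −0.52 ± 0.20 in the GFP+ gate (adjusted p = 0.141). Mgst3 had the opposite sign: 10.22, 9.60 and 10.09 in the columnar gate, 10.82, 11.29 and 10.24 in the lectin-only gate and 10.66, 10.91 and 9.90 in the GFP+ gate. Its lectin-only arrays were all above the columnar arrays, by 0.81 ± 0.34, which was not called (adjusted p = 0.19).

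Glutathione peroxidases use glutathione to reduce peroxides. Of 8 measured, 1 was called by its chosen probe set. Gpx3, the secreted form found in plasma and in the fluid lining epithelia, was at 8.22, 6.66 and 7.99 in the columnar gate, 6.54, 6.65 and 6.83 in the lectin-only gate and 5.35, 5.27 and 5.46 in the GFP+ gate. The GFP+ arrays were tightly grouped below all others, and columnar replicate 2 lay within the range of the lectin-only arrays. Gpx3 fell by 2.26 ± 0.35 in the GFP+ gate against the columnar gate (adjusted p = 0.0021, 4.80-fold lower), which held under all 19 alternatives. The difference of −0.95 ± 0.35 between the lectin-only and columnar gates (adjusted p = 0.143) was not called; without columnar replicate 2 it was called at −1.43 (adjusted p = 0.00325), as was the difference of −1.32 between the GFP+ and lectin-only gates (adjusted p = 0.00629, against 0.0768 with all arrays).

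Gpx1, the cytosolic enzyme, lay between 12.38 and 12.70 on the 9 arrays, and Gpx2, known from gut and airway epithelium, between 11.68 and 12.21. Neither was called, although for Gpx2 both lectin-binding gates lay below the columnar gate, by −0.32 each. Gpx4, which acts on lipid hydroperoxides in membranes, was at 12.04, 12.06 and 12.27 in the columnar gate and 11.63, 11.50 and 11.37 in the GFP+ gate. The difference of −0.62 (adjusted p = 0.0313) was under the minimum for this probe set, while another Gpx4 probe set was called lower, at −1.07 (adjusted p = 0.0105 over every probe set). Gpx7 and Gpx8, of the endoplasmic reticulum, differed by −0.44 and −0.05 in the GFP+ gate. Gpx5 and Gpx6 were under background on all 9 arrays.

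Peroxiredoxins reduce peroxides through cysteines that thioredoxin restores, and none of the 3 members was called. Prdx2 lay between 11.81 and 12.11 on the 9 arrays. Prdx3, the mitochondrial form, was at 11.04, 10.62 and 10.77 in the columnar gate, 10.19, 10.81 and 10.82 in the lectin-only gate and 10.08, 10.20 and 9.65 in the GFP+ gate. At −0.83 ± 0.24, the GFP+ gate against the columnar gate (adjusted p = 0.0446) was under the minimum. Prdx4, of the secretory pathway, overlapped between the gates, at 9.72 to 11.00. Prdx1 was measured only by 5 probe sets that also name another gene; these had signals of 11.21 to 13.69 and were not assigned to a member.

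**Figure D3:**
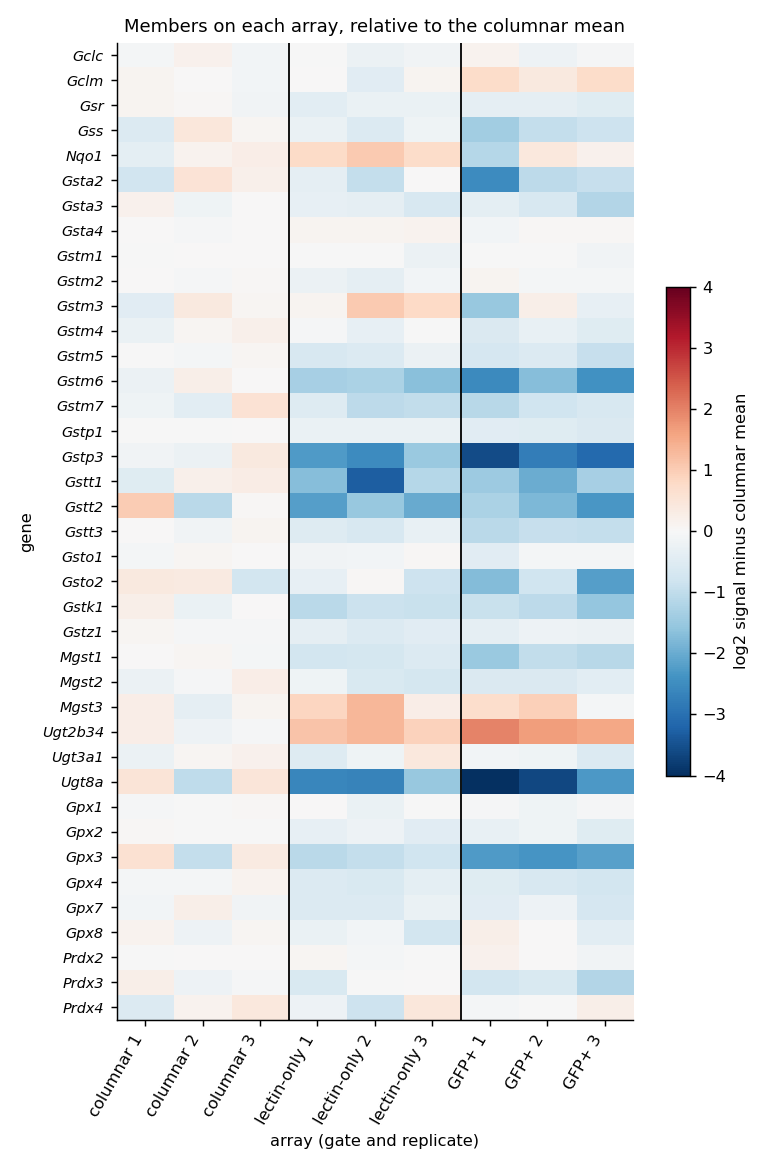
Signal of the 39 members above background in at least 1 gate, on each of the 9 arrays, as the log2 difference from the mean of the 3 columnar arrays on a colour scale from −4 to 4. Ugt8a, Gstp3 and Gstm6 are coloured as lower on all 6 lectin-binding arrays, Ugt2b34 as higher on all 6, and Gclc, Gsta4, Gpx1 and Prdx2 are close to 0 throughout.

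The Ugt family held the member that rose and the member that fell most. Ugt2b34, of the subfamily that joins glucuronic acid to steroids and foreign compounds, was at 10.82, 10.34 and 10.51 in the columnar gate, 11.68, 11.88 and 11.49 in the lectin-only gate and 12.53, 12.24 and 12.10 in the GFP+ gate. The 3 gates did not overlap, with the GFP+ arrays the highest. Ugt2b34 rose by 1.73 ± 0.20 in the GFP+ gate (adjusted p = 0.000377, 3.32-fold higher) and by 1.13 ± 0.20 in the lectin-only gate (adjusted p = 0.00581, 2.19-fold higher), and another probe set rose by 1.81 and 1.26. The GFP+ call held under all 19 alternatives, and the lectin-only difference went to 0.89 (adjusted p = 0.0493), under the minimum, with arrays centred on their medians. Between the GFP+ and lectin-only gates the difference was 0.60 ± 0.20 (adjusted p = 0.156).

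Ugt2b34 is the outermost of 10 neighbouring Ugt2 genes in the RefSeq order of GRCm38.p6. Of these, Ugt2b1, Ugt2b35, Ugt2b36, Ugt2b5, Ugt2b37, Ugt2a3 and Ugt2b38 were members measured singly, with signals between 1.84 and 3.53 on all arrays, under the background level. Ugt2a1 and Ugt2a2 shared 1 probe set with means of 4.0, 3.70 and 3.18 in the columnar, lectin-only and GFP+ gates. Of the Ugt2 genes measured singly here, Ugt2b34 was above background, and the probe set shared by Ugt2a1 and Ugt2a2 was also above it on the columnar arrays, at 4.25, 4.15 and 3.62. The Ugt1a genes, which share their last exons, were measured together by 3 probe sets that each list 8 of them, at 10.32 to 12.49, and were not assigned. The means of the brightest of these 3 were 12.38, 12.35 and 12.30 in the columnar, lectin-only and GFP+ gates.

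Ugt8a belongs to the family by sequence but is known as the enzyme that joins galactose to ceramide, and takes no part in glucuronidation. It had signals of 8.15, 6.61 and 8.09 in the columnar gate, 5.0, 4.94 and 6.11 in the lectin-only gate and 3.10, 3.96 and 5.33 in the GFP+ gate. The columnar arrays were above all others, the lectin-binding gates overlapped, and 1 GFP+ array was under the background level. Ugt8a fell by 3.49 ± 0.61 in the GFP+ gate (adjusted p = 0.0038, 11.2-fold lower) and by 2.27 ± 0.61 in the lectin-only gate (adjusted p = 0.0423, 4.82-fold lower). The GFP+ call held under all 19 alternatives, at −4.09 to −1.93. The lectin-only call was lost without columnar replicate 1 (−2.00, adjusted p = 0.139) or 3 (−2.03, 0.133), lectin-only replicate 1 (−2.09, 0.133) or 2 (−2.06, 0.112) or GFP+ replicate 2 (−2.27, 0.063), for the mean of its probe sets (−1.09, 0.078) and when every probe set was tested (0.0518). Another Ugt8a probe set had mean signals of 2.62, 2.72 and 2.25 in the columnar, lectin-only and GFP+ gates, below the background level. It differed from the columnar gate by −0.38 in the GFP+ gate and 0.09 in the lectin-only gate, neither of them called. Ugt3a1 was at 3.90 to 4.86 and not called, and Ugt3a2 was under background on all arrays.

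Genes that regulate, supply or complete these reactions were counted from a list of 87 measured genes. In the GFP+ gate against the columnar gate, 5 of the 87 (5.75%) were higher and 9 (10.3%) lower, against 5.88% and 5.33% of all genes. In the lectin-only gate 6 (6.9%) were higher and 1 (1.15%) lower, against 6.47% and 2.38%. Between the GFP+ and lectin-only gates 1 (1.15%) was higher and 2 (2.3%) lower, against 0.896% and 2.84%. Their median differences were −0.25, −0.09 and −0.23 in the same order. Of 13 regulators, 0 were called by limma in any comparison: Nfe2l2 lay between 11.22 and 12.07 on the 9 arrays, with −0.06 ± 0.22 between the GFP+ and columnar gates (adjusted p = 0.917), and Keap1, which holds NRF2 for breakdown, between 9.70 and 10.57, with −0.33 ± 0.22 (adjusted p = 0.425).

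The breakdown of glutathione outside the cell is begun by gamma-glutamyltransferases. Ggt5, a member of that family that also converts leukotriene C4, was at 3.17, 3.13 and 4.41 in the columnar gate, 6.07, 6.07 and 6.10 in the lectin-only gate and 7.68, 7.05 and 6.83 in the GFP+ gate. The gates did not overlap, and 2 of the 3 columnar arrays were under background. Ggt5 rose by 3.62 ± 0.35 in the GFP+ gate (adjusted p = 0.000142) and by 2.51 ± 0.35 in the lectin-only gate (adjusted p = 0.00166). Ggt6 rose by 2.26 ± 0.40 in the lectin-only gate (adjusted p = 0.00601) and differed by 1.36 ± 0.40 in the GFP+ gate (adjusted p = 0.0534). Cbs, the entry to cysteine synthesis from homocysteine, fell by 2.34 ± 0.48 in the GFP+ gate (adjusted p = 0.00976) and was also called lower in the lectin-only gate, at −2.20 ± 0.48 (adjusted p = 0.0172); it was the 1 related gene called lower there, and 0 were without columnar replicate 3.

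Export pumps differed in both directions. Abcb1b, a P-glycoprotein that moves lipid-soluble drugs, was at 3.17, 3.24 and 3.31 in the columnar gate, 4.95, 4.43 and 5.49 in the lectin-only gate and 6.46, 6.07 and 6.52 in the GFP+ gate. All columnar arrays were under background, so the fold is a bound: Abcb1b was at least 6.93-fold higher in the GFP+ gate (adjusted p = 7.07e-05) and at least 2.64-fold higher in the lectin-only gate (adjusted p = 0.00269). It was also the 1 related gene called higher in the GFP+ than in the lectin-only gate, by 1.39 ± 0.26 (adjusted p = 0.0184); that count was 0 without lectin-only replicate 1, GFP+ replicate 1 or GFP+ replicate 3, and 3 without columnar replicate 3. Abcg2, a pump of anticancer drugs and conjugates, was at 2.53, 2.64 and 2.99 in the columnar gate, 5.63, 5.21 and 5.60 in the lectin-only gate and 3.77, 3.88 and 3.69 in the GFP+ gate. It was highest in the lectin-only gate, at least 3.79-fold higher than in the columnar gate (adjusted p = 5.56e-05), at least 1.17-fold higher in the GFP+ gate than in the columnar gate (adjusted p = 0.00493), and lower in the GFP+ than in the lectin-only gate by 1.70 on the log2 scale (adjusted p = 0.00176). Abcc5, another pump of organic anions, fell by 1.54 ± 0.43 in the GFP+ gate against the columnar gate (adjusted p = 0.0399).

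The sestrins Sesn1 and Sesn3, stress proteins linked to peroxiredoxin recovery, rose in the GFP+ gate by 2.04 ± 0.33 (adjusted p = 0.00235) and 1.20 ± 0.23 (adjusted p = 0.00646), and Sesn1 rose by 1.38 ± 0.33 in the lectin-only gate (adjusted p = 0.0245). Cbr1, a carbonyl reductase, and Blvrb, a biliverdin reductase, fell in the GFP+ gate by 1.49 ± 0.17 (adjusted p = 0.000307) and 1.49 ± 0.19 (adjusted p = 0.000583). Idh2, the mitochondrial enzyme that supplies NADPH, fell by 1.26 ± 0.27 (adjusted p = 0.0122). The other 3 related genes called lower there, Hmox1, Abcc3 and Gusb, lay at −1.26, −1.22 and −1.07.

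A last group of 6 related genes held Hpgds, Ptges, Ltc4s and Alox5ap, of prostaglandin and leukotriene synthesis, with Gstcd and Clic1, which share a domain or fold with the glutathione transferases. In the GFP+ gate 1 of the 6 was lower and 0 were higher than in the columnar gate, against 5.33% and 5.88% of all genes, and in the lectin-only gate 1 was higher and 0 lower, against 6.47% and 2.38%. Alox5ap, the activating protein of 5-lipoxygenase, was at 8.17, 8.82 and 9.05 in the columnar gate, 9.06, 8.22 and 9.81 in the lectin-only gate and 5.66, 5.94 and 6.69 in the GFP+ gate. It fell by 2.58 ± 0.42 in the GFP+ gate against the columnar gate (adjusted p = 0.00269) and by 2.93 ± 0.42 against the lectin-only gate (adjusted p = 0.00581). Hpgds, a glutathione-using prostaglandin D synthase, rose by 1.57 ± 0.36 in the lectin-only gate against the columnar gate (adjusted p = 0.0214). Leukocyte markers were highest in the lectin-only gate, and 3 of 10 were called higher, none lower, in the GFP+ than in the columnar gate. The brush cell markers Trpm5 and Dclk1 differed in the GFP+ gate by −2.40 ± 0.47 (adjusted p = 0.00749) and −2.90 ± 0.74 (0.0284) against the columnar gate and −2.11 ± 0.47 (0.0384) and −2.86 ± 0.74 (0.0681, not called) against the lectin-only gate. The other 3 of 5 brush cell markers were not called in the GFP+ gate against the columnar gate. Pou2f3 differed by 0.23 ± 0.22 (limma adjusted p = 0.61), Avil by −0.59 ± 0.52 (0.57) and Il25 by −0.81 ± 0.27 (0.0821). The part of leukocytes or brush cells in the differences of Alox5ap and Hpgds was not tested.

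**Figure D4:**
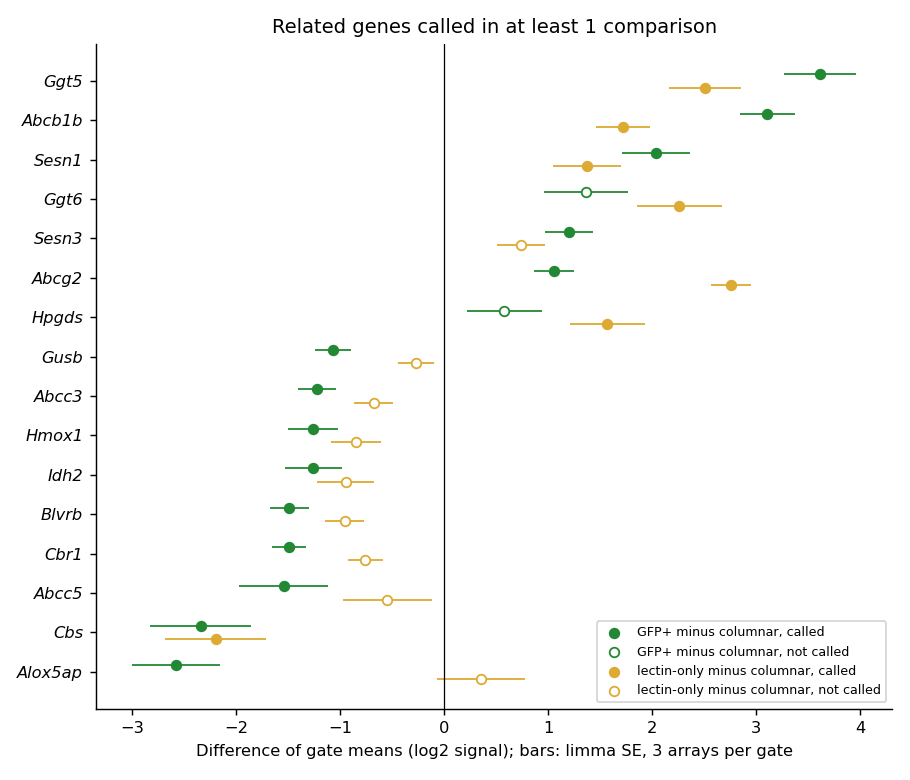
Log2 difference of the 16 related genes called in at least 1 comparison, by comparison, with bars of 1 limma SE and filled symbols for called differences. Ggt5 and Abcb1b lie right of 0 in GFP+ against columnar at 3.62 and 3.11, Alox5ap and Cbs lie left of 0 at −2.58 and −2.34, and Abcg2 is highest in the lectin-only gate.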

How the data were processed

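Per the submitters' processing notes, the authors deposited probe set signals on the log2 scale made with RMA (background correction, normalization and summary of probes). The software, its version and any filter are not given in the sources used here, and the log2 scale was checked on the range of the values. Of 45101 probe sets, 64 were controls; of the rest, the platform annotation gave 34945 a single gene symbol, 932 more than 1 symbol and 9160 no symbol. Only those with a single symbol were used. For each gene the probe set with the highest mean over 9 arrays was kept, which gave 18193 genes. Of the 50 members, 17 had several probe sets to choose from, and 10 further probe sets shared with other genes were not assigned.

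All 9 arrays entered 1 linear model of gate means (limma 3.58.1, R 4.3.3; eBayes used neither trend nor robust estimation). The model had 6 residual and 3.46 prior degrees of freedom. The Benjamini-Hochberg adjustment ran over all genes of a comparison. A gene was called at an adjusted p under 0.05 and a log2 difference of at least 1 in size. The number of arrays limits precision: the median gene had an SE of 0.24. Where a gene was under background on all arrays of the dimmer gate, the fold is a bound, with that gate set to the higher of background and its own signal on each array. The scripts were tested on simulated data. Members called in a comparison, and Gclc, Gclm, Gss, Gsr and Nqo1, are given on every array; of the related genes, those of largest difference are named, up to 6 per comparison and direction, with Nfe2l2 and Keap1; Hmox1, Abcc3 and Gusb were added after their values were seen. The members, related genes and markers were chosen with earlier results of these data known.

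Alternatives covered the scaling of arrays, the choice of probe set, dim genes, the eBayes settings, a replicate block, the minimum fold, fits of only 2 gates, and leaving out each array.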

Additional observations from a re-analysis of the deposited data

How the results depend on the processing

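Of the 16 called differences of members, 7 held under all 19 alternatives and 0 changed sign: Gpx3, Gstp3, Gstm6, Ugt2b34 and Ugt8a in the GFP+ gate and Gstp3 and Gstm6 in the lectin-only gate. The cause of the other losses was not tested. Not every alternative could remove a call. Leaving out the minimum fold can only add calls. Gpx3, Gstp3 and Gstm6 have 1 probe set each, so the settings on the choice of probe set left their own signals unchanged. Members called lower in the GFP+ than in the columnar gate numbered 14 without a minimum fold against 9, and 6 to 10 when 1 array was left out. In the lectin-only gate, members called lower numbered 3 with only these gates in the fit against 5, and 2 to 6 when 1 array was left out; members called higher numbered 0 instead of 1 with arrays centred on their medians, where the split of higher to lower was 0 to 7, and 1 to 7 after further quantile normalization. Between the GFP+ and lectin-only gates, members called lower numbered 1 with only these gates in the fit (Gpx3) against 0, and 0 to 1 when 1 array was left out. Of related genes, those lower in the GFP+ than in the columnar gate numbered 14 centred and 16 without a minimum fold, against 9. Those lower in the lectin-only gate numbered 5 centred, 5 after further quantile normalization, 2 by the probe set of largest variance, 2 with only these gates in the fit and 4 without a minimum fold, against 1, and 0 to 2 when 1 array was left out. Between the GFP+ and lectin-only gates those higher numbered 2 centred, 2 after further quantile normalization and 2 without dim genes, against 1, and 0 to 3 when 1 array was left out; those lower numbered 4 without a minimum fold against 2. Centring moved the median of all genes from −0.04 to −0.15 in the GFP+ gate and from 0.07 to −0.16 in the lectin-only gate, and that of the members from −0.30 to −0.41 and from −0.20 to −0.44. Signals under background carry no order, which limits the 11 dim members.

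Replicate numbers recur in each gate. The correlations of same-numbered arrays' deviations from their gate means were 0.27, 0.04 and 0.22 for GFP+ against columnar, in order of replicate. They were −0.07, −0.07 and 0.12 for lectin-only against columnar, and −0.045, 0.37 and 0.38 for GFP+ against lectin-only. Each GFP+ array correlated best with the columnar array of its own number. Whether arrays of the same number belong together is not given in the sources used here, and these correlations do not settle it. With the replicate block, members called lower between the GFP+ and lectin-only gates numbered 2 (Gstm3 and Gsto2) against 0, members lower in the GFP+ than in the columnar gate 11 against 9 (Gsta2 and Gstt1 added), and related genes lower in the lectin-only gate 2 against 1.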

Other observations

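Some members shared low arrays inside a gate; these were picked out after their values were seen. Replicate 1 was the lowest of its gate for Gss, Gsta2, Gstm3 and Nqo1 in both the columnar and the GFP+ gates: 9.01, 9.66, 8.78 and 8.81 among the columnar arrays and 8.15, 7.92, 7.74 and 8.05 among the GFP+ arrays. The probe set that lists Gsta1 and Gsta2 with another gene did the same, at 9.21 against 9.78 and 9.30 in the columnar gate and at 7.39 against 9.0 and 8.44 among the GFP+ arrays. Of Gss, Gsta2, Gstm3 and Nqo1, Gstm3 alone had lectin-only replicate 1 as its lowest array of that gate. The columnar and GFP+ arrays of replicate 1 were also the lowest of their gates for further members, among them Gstm4, Gstm6, Gsto1, Mgst2 and Prdx4. The share over all genes was not counted. Gclc and Gclm did not share this order: replicate 1 was the highest GFP+ array for both, at 10.61 and 10.58.

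Columnar replicate 2 was the lowest columnar array for Gpx3, Gstt2 and Ugt8a, at 6.66, 5.04 and 6.61 against at least 7.99, 6.18 and 8.09 on the others. These 3 were also picked out after their values were seen. It was the lowest columnar array for further members too, among them Gstk1 (11.23), Gstm7 (7.33), Gstt3 (8.90), Mgst3 (9.60) and Prdx3 (10.62). Among the marker lists, columnar replicate 2 was the lowest columnar array for 7 of 8 macrophage, 4 of 5 brush cell, 4 of 10 ciliated cell and 4 of 10 basal cell markers. It was the lowest for 3 of 10 leukocyte, 2 of 8 fibroblast, 2 of 8 endothelial and 2 of 6 smooth muscle and myoepithelial markers. The counts were 1 of 2 for erythroid, 0 of 4 for neuroendocrine and 0 of 10 for club and other secretory markers. The share over all genes was not counted. The part of these cell types in the 3 low values was not tested.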
